A study of Caenorhabditis elegans with 16 samples.

Results

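The genes of fatty acid beta-oxidation were followed in whole worms of *Caenorhabditis elegans* that carried or lacked *alfa-1* and were starved or well-fed. They were the genes whose array symbol starts with *acdh*, *acox*, *ech*, *hacd* or *cpt* and a number, together with *daf-22*, *maoc-1*, *dhs-28*, *kat-1* and *acaa-2*. This rule gave 41 of the 25498 genes on the Affymetrix array, each read by 1 probe set. By the known location of each enzyme family, 24 were counted as mitochondrial and 10 as peroxisomal, and 7 enoyl-CoA hydratase (*ech*) genes have no compartment that is sure. No location was measured here. The mutant strain carries *ok3062*, a deletion allele of *alfa-1*, the worm ortholog of the human gene C9orf72, and N2 is the wild-type strain. There were 4 groups of 4 samples: starved *alfa-1(ok3062)*, well-fed *alfa-1(ok3062)*, starved N2 and well-fed N2. Starved worms were kept in M9 buffer without food for 6 hr. All groups were grown on *E. coli* OP50 and were labelled as the L3 larval stage, which the methods give as L3/L4.

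The sources differ on the well-fed worms. The labels say that these were also rocked in M9 buffer for 6 hr, with food, and the methods say that they were frozen when the starved worms began. If the methods hold, the absence of food cannot be told apart from 6 hr of further age, nor from 6 hr of mixing in buffer at room temperature. The labels name the strains IW313 (mutant) and IW314 (N2) where the methods name RB2260 and N2, and the source field gives IW314 for every sample. The array value of *alfa-1* nevertheless separated the strains. It lay between 7.39 and 7.67 on the log2 scale in all 8 mutant samples and between 9.11 and 9.59 in all 8 N2 samples. The position of its probes relative to the deletion is not known here. The worms of a strain were divided among tubes, and nothing says that the 4 samples of a group were separate cultures. The p-values therefore speak only of the spread among these tubes, part or all of which may be technical.

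Beta-oxidation shortens fatty acyl-CoA by rounds of the same chemistry: a dehydrogenation, a hydration, another dehydrogenation and a cleavage by a thiolase. In mitochondria, carnitine palmitoyltransferases (CPT) bring long chains in, acyl-CoA dehydrogenases (ACDH) start each round, and the electrons enter the respiratory chain. In peroxisomes, acyl-CoA oxidases (ACOX) start the round and pass electrons to oxygen, and MAOC-1, DHS-28 and DAF-22 complete it. The worm uses the peroxisomal route for very long chains and for trimming the side chains of ascarosides, the pheromones that include the dauer signal. Fasting in many animals is accompanied by increased mitochondrial beta-oxidation, with NHR-49 as a regulator in the worm.

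All values below are log2 expression values per probe set as deposited, so a difference of 1 is a factor of 2 in array signal. A gene is said to have risen or fallen at an adjusted p under 0.05 in a limma fit to all 16 arrays, with p-values adjusted over all 25498 genes, and SE is the standard error of that fit. Whole worms were measured, so fewer cells of a type and less RNA per cell cannot be told apart. Levels of different genes come from different probes and are not compared with each other. The third starved N2 sample stood apart. It was the lowest of its group for 28 of the 41 genes, against 4, 4 and 5 for the other starved N2 samples. Over all genes it was the lowest of its group for 22.8% and the highest for 40%. Its correlation with the other starved N2 samples over all genes was 0.983 to 0.987, and theirs with each other was 0.988 to 0.995. The main results for the 41 genes that rest on the third starved N2 sample are given with and without it. Those for pathway and marker genes are given only with it. The third well-fed N2 sample was the lowest of its group for 20 of the 41 genes, and for 24.7% of all genes.

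Most beta-oxidation genes were lower after 6 hr without food, in both strains. In *alfa-1(ok3062)* worms 25 of the 41 fell, 1 rose and 15 did not pass, where 14.3% of all genes fell and 10.9% rose. Before adjustment 29 of the 41 mutant differences had a limma p below 0.05 on the lower side and 2 on the higher side, where 36.4% of all genes did in either direction. In N2 worms 21 of the 41 fell, 0 rose and 20 did not pass, where 11.6% of all genes fell and 10.8% rose. In the same way 28 of the 41 N2 differences had a limma p below 0.05 before adjustment on the lower side and 1 on the higher side, against 34.3% of all genes. The median log2 fold change of the 41 genes was -0.49 in *alfa-1(ok3062)* and -0.41 in N2. The medians over all genes were -0.016 in the mutant and 0.008 in N2. The arrays of starved and well-fed worms did not overlap, with starved lower, for 27 of the 41 genes in the mutant, where this held for 15.7% of all genes. In N2 this held for 21 of the 41 and for 12.2% of all genes. Without the third starved N2 sample 18 of the 41 fell in N2, with a median of -0.33, where 2717 of all 25498 genes fell. With the 8 N2 arrays fitted alone 16 of the 41 fell, against 2298 of all genes. The methods' t-test after adjustment gave 5 lower and 0 higher in N2, against 1586 and 1456 of all genes. In the mutant it gave 24 lower and 2 higher, against 2878 and 2054 of all genes.

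**Figure D1:**
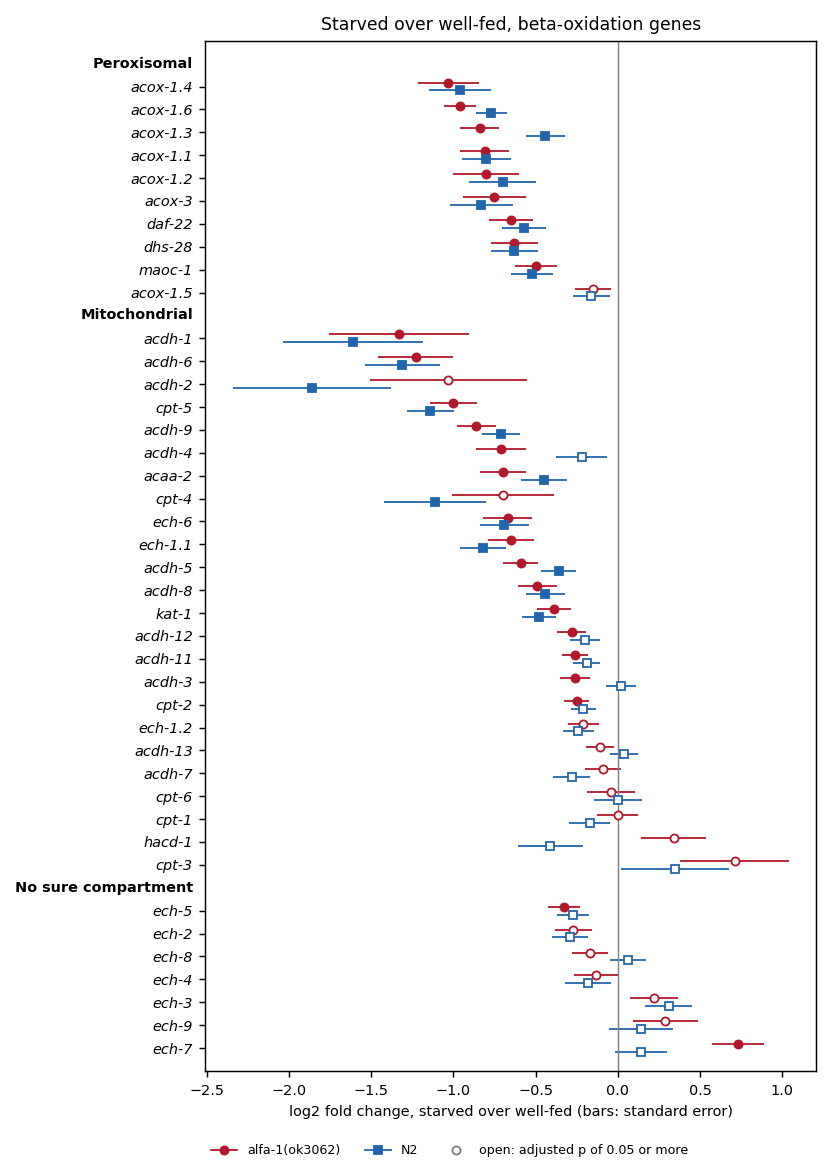
Log2 fold change of starved over well-fed worms for the 41 genes, by compartment, in *alfa-1(ok3062)* (red circles) and N2 (blue squares), with standard errors as bars. Filled symbols passed at an adjusted p under 0.05. In each strain 9 of 10 peroxisomal genes lie to the left with filled symbols, and *ech-7* in the mutant is the filled symbol to the right.

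At each step of the peroxisomal route there were genes with lower array signal after starvation. Of the 10 peroxisomal genes 9 fell in *alfa-1(ok3062)* and the same 9 fell in N2, with median log2 fold changes of -0.77 and -0.67. The exception was *acox-1.5*, an acyl-CoA oxidase gene, with -0.15 in the mutant and -0.16 in N2 (adjusted p = 0.345 and 0.329). Without the third starved N2 sample 8 of 10 fell in N2, with a median of -0.50, and the gene lost was *acox-1.2* (log2 fold change -0.53, adjusted p = 0.0665).

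Among the acyl-CoA oxidases *acox-1.6* had the smallest p in both strains. Its log2 values were 8.45, 8.76, 8.34 and 8.51 in starved mutant worms, against 9.57, 9.63, 9.32 and 9.39 in well-fed mutant worms. Each starved sample lay below each well-fed one, and the fall was 0.96 on the log2 scale (SE 0.0947, adjusted p = 6.97e-06), which is 51.3% of the well-fed signal. For N2 the starved samples read 8.56, 8.39, 8.52 and 8.40, and the well-fed samples 9.25, 9.31, 9.17 and 9.21. Here too the groups were apart, with a log2 fold change of -0.77 (SE 0.0947, adjusted p = 5.09e-05), and the third starved sample was not the lowest.

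The gene *acox-1.4* had the steepest fall of the peroxisomal genes. In the starved mutant its log2 values were 8.48, 8.5, 8.35 and 8.40, against 9.32, 9.57, 9.49 and 9.46 in the well-fed mutant. The groups lay apart, at a fold change of -1.03 (SE 0.188, adjusted p = 0.00103), which is 49% of the well-fed signal. In N2 the starved samples split, with log2 values of 8.05, 8.92, 8.03 and 9.08, against 9.35, 9.58, 9.55 and 9.42 in well-fed worms. The first and the third starved N2 samples were well under the other two, yet all 4 lay under every well-fed sample. On the log2 scale the difference was -0.96 (SE 0.188, adjusted p = 0.00187). It was -0.79 with the third starved N2 sample left out, and the gene still fell.

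For *acox-1.3* the 4 starved mutant samples had log2 values of 7.35, 6.80, 7.21 and 7.02, against 7.78, 8.07, 7.94 and 7.96 in the well-fed mutant. The groups did not overlap (log2 fold change -0.84, SE 0.117, adjusted p = 0.000125). In N2 its values were 7.51, 7.59, 7.6 and 7.19 after starvation, against 7.95, 7.97, 7.80 and 7.92 in fed worms, a log2 fold change of -0.44 (SE 0.117, adjusted p = 0.0131). The difference between the strains in this response was -0.40 on the log2 scale (95% interval -0.75 to -0.05, unadjusted p = 0.0271, adjusted p = 0.735 in limma) and did not pass.

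The close relative *acox-1.1*, whose product is an oxidase of ascaroside side chains, had log2 values of 8.67, 8.88, 7.97 and 8.76 in starved N2, against 9.27, 9.51, 9.39 and 9.31 in well-fed N2. The third starved sample was the lowest, and the other 3 also lay under every fed sample (log2 fold change -0.80, SE 0.149, adjusted p = 0.00128). The N2 value of *acox-1.1* was -0.60 with that sample left out, and the gene still fell. In the mutant its log2 fold change was -0.81 (SE 0.149, adjusted p = 0.00112). The remaining oxidase genes that fell were *acox-1.2*, with log2 fold changes of -0.80 in the mutant and -0.70 in N2, where the call held in 4 of 8 fits with an array left out, and *acox-3*, with -0.75 and -0.83. For *acox-3* the N2 value was -0.64 with the third starved sample left out, and it still fell. The log2 values of *acox-1.2* went down to 5.25 in starved N2, under the array medians of 5.80 to 5.85. The genes *acox-1.1*, *acox-1.2*, *acox-1.3* and *acox-1.4* follow each other on chromosome I of the assembly WBcel235 with 0 protein-coding genes between them. How far their probes cross-hybridise is not known here, so their falls are not 4 independent counts.

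The genes of the enzymes that act after the oxidases fell in both strains. The gene of the peroxisomal enoyl-CoA hydratase, *maoc-1*, had a log2 fold change of -0.50 in the mutant and -0.52 in N2 (adjusted p = 0.0103 and 0.00812). That of the hydroxyacyl-CoA dehydrogenase, *dhs-28*, was -0.63 in both strains (adjusted p = 0.00426 and 0.00478). For the thiolase gene *daf-22*, without which worms make no dauer pheromone, it was -0.65 in the mutant and -0.57 in N2 (adjusted p = 0.00219 and 0.00533). In starved N2 *daf-22* had log2 values of 8.21, 8.18, 7.57 and 8.29, against 8.60, 8.69, 8.57 and 8.70 in well-fed N2. The third sample was far below its group, but every starved sample was under every fed one. With the third starved N2 sample left out, the N2 log2 fold changes of *maoc-1*, *dhs-28* and *daf-22* were -0.42, -0.45 and -0.41. These 3 genes kept their calls in both strains whichever array of the comparison was left out.

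**Figure D2:**
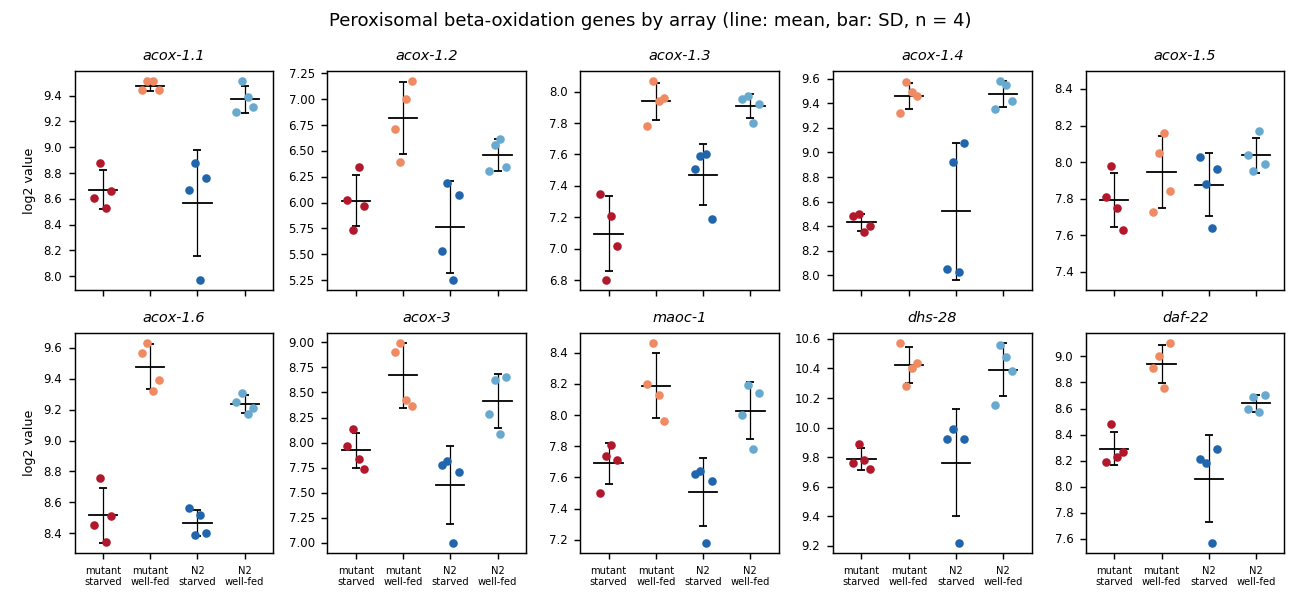
Log2 values of the 10 peroxisomal genes in each of the 16 arrays; each point is an array, the line is the mean and the bar the SD (n = 4), and each panel has its own vertical axis. For *acox-1.6* the starved mutant samples sit between 8.34 and 8.76 and the well-fed ones between 9.32 and 9.63, and *acox-1.5* shows overlapping groups in both strains.

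The mitochondrial genes split. Of 24 genes 15 fell in *alfa-1(ok3062)*, 0 rose and 9 did not pass, and the median log2 fold change was -0.44. In N2 12 fell, 0 rose and 12 did not pass, with a median of -0.38. The same 10 mitochondrial genes fell in both strains, which is 66.7% of the mutant list and 83.3% of the N2 list. Without the third starved N2 sample 10 of 24 fell in N2, with a median of -0.28.

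At the entry of fatty acids, the carnitine palmitoyltransferase genes did not move together. The gene *cpt-1*, of the outer membrane enzyme that commits acyl chains to the mitochondrion, had a log2 fold change of -0.17 in N2 (95% interval -0.44 to 0.09, adjusted p = 0.365). In the mutant its interval was -0.27 to 0.26 (adjusted p = 0.993), and its 4 mean log2 values lay between 11.51 and 11.69. The gene *cpt-2*, of the inner membrane enzyme, fell by 0.25 on the log2 scale in the mutant (adjusted p = 0.0221) and had -0.21 in N2 (adjusted p = 0.0537). With an array left out, the mutant call held in 5 of 8 fits.

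A family member of less known function, *cpt-5*, had the smallest p of the mitochondrial genes in N2. Its log2 values were 5.47, 5.70, 5.10 and 5.69 in starved N2, against 6.66, 6.82, 6.48 and 6.57 in well-fed N2. In the mutant they were 5.61, 5.17, 5.38 and 5.57 when starved, against 6.15, 6.62, 6.39 and 6.54 when fed. In both strains the groups lay apart, with log2 fold changes of -1.0 in the mutant (SE 0.143, adjusted p = 0.000159) and -1.14 in N2 (SE 0.143, adjusted p = 5.62e-05). These are about 50.1% and 45.3% of the fed signal. The N2 log2 fold change was -1.01 with the third starved sample left out. All starved values lay under the array medians of 5.80 to 5.85, and signal over background was not analysed.

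The other members of the family differed among themselves. For *cpt-4* the log2 values were 7.50, 7.78, 7.61 and 7.77 in starved mutant worms, against 8.51, 8.24, 8.35 and 8.36 in fed ones. In starved N2 they were 8.06, 8.29, 6.31 and 8.30, against 8.86, 9.02, 8.58 and 8.95 in fed N2. Starved and fed arrays were apart in both strains, and the third starved N2 sample was far below the other 3. The log2 fold change was -1.11 in N2 (adjusted p = 0.0172) and -0.64 without that sample (adjusted p = 0.00133). In the mutant it was -0.70 and did not pass (adjusted p = 0.116) in the fit that shares 1 spread over all groups, and it passed on the 8 mutant arrays alone (adjusted p = 0.000777). With the N2 arrays alone the N2 call was lost (adjusted p = 0.0844). The genes *cpt-3*, with log2 fold changes of 0.71 in the mutant and 0.35 in N2 (0.58 without the third starved sample), and *cpt-6*, with -0.04 and 0.00, did not pass. Many log2 values of *cpt-3* lay under the array medians, down to 4.49 in fed N2.

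The acyl-CoA dehydrogenase genes, which act at the first step, numbered 12, of which 9 fell in the mutant and 6 in N2. The gene *acdh-1*, of the dehydrogenase that opens the propionate shunt, a side route that burns propionate without vitamin B12, had the lowest fold change of the 41 genes in the mutant. It had log2 values of 10.28, 10.13, 10.47 and 10.07 in starved mutant worms, against 11.51, 11.40, 11.78 and 11.59 in fed ones. Starved N2 read 9.93, 10.85, 7.90 and 10.55, and fed N2 11.41, 11.80, 11.13 and 11.35. All starved samples were lower than all fed ones, and the third starved N2 sample was far below the other 3. Its log2 fold change of starved over fed was -1.33 in the mutant (SE 0.428, adjusted p = 0.0318) and -1.61 in N2 (SE 0.428, adjusted p = 0.0129). Without the third starved N2 sample it was -0.98 in N2 (adjusted p = 0.0025). The mutant call was lost in 7 of 8 fits with 1 mutant array left out (adjusted p up to 0.0744), and on the 8 mutant arrays alone the adjusted p was 7.85e-05. On the 8 N2 arrays alone the N2 call was lost (adjusted p = 0.0718).

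Its close paralog *acdh-2* had a similar pattern. In starved N2 the log2 values were 9.42, 9.10, 6.20 and 8.36, against 10.27, 10.35, 10.06 and 9.83 in fed N2. The log2 fold change of -1.86 (SE 0.479, adjusted p = 0.0109) became -1.17 without the third starved sample (adjusted p = 0.00398). In the mutant it was -1.03 with arrays that did not overlap, which did not pass in the shared fit (adjusted p = 0.132) and passed on the mutant arrays alone (adjusted p = 0.00454). The N2 call was lost on the N2 arrays alone (adjusted p = 0.0581). Probes of similar genes such as these 2 can share signal, which was not tested.

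The gene *acdh-6*, of the same family, kept its call in every fit with an array left out. In the starved mutant its log2 values were 7.26, 7.25, 7.21 and 7.12, against 8.56, 8.08, 8.60 and 8.54 in the fed mutant. In N2 they were 7.06, 7.56, 6.26 and 7.53 after starvation, against 8.57, 8.70, 8.27 and 8.11 in fed worms. The starved samples of each strain lay below all its fed ones, and the log2 fold change was -1.23 in the mutant (SE 0.226, adjusted p = 0.00107) and -1.31 in N2 (SE 0.226, adjusted p = 0.000726). The N2 value was -1.03 with the third starved sample left out.

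The dehydrogenase gene with the smallest p in the mutant was *acdh-9*. It read 8.90, 8.72, 8.47 and 8.81 in starved mutant worms, against 9.45, 9.77, 9.41 and 9.72 in fed ones, on the log2 scale. In N2 the starved samples read 8.66, 8.77, 8.66 and 9.07, and the fed samples 9.49, 9.41, 9.63 and 9.49. The groups were apart in both strains, at log2 fold changes of -0.86 in the mutant (SE 0.118, adjusted p = 0.000108) and -0.71 in N2 (SE 0.118, adjusted p = 0.000504). The third starved N2 sample tied with the first here and did not stand apart.

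For *acdh-5* the samples of a mutant group lay close together. Starved mutant samples had log2 values of 4.96, 5.04, 5.03 and 5.07, against 5.70, 5.56, 5.70 and 5.51 in fed mutant samples, a log2 fold change of -0.59 (SE 0.106, adjusted p = 0.000894). All these values lay under the array medians of 5.80 to 5.85, and signal over background was not analysed. In N2 it was -0.36 (adjusted p = 0.0228), and -0.30 without the third starved sample (adjusted p = 0.0683). For *acdh-8*, of the medium-chain type, the log2 fold changes were -0.49 in the mutant and -0.44 in N2 (adjusted p = 0.00675 and 0.0139). For *acdh-7*, also of the medium-chain type, they were -0.09 and -0.28 and did not pass (adjusted p = 0.601 and 0.0903).

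A group of 4 dehydrogenase genes passed in the mutant and not in N2. They were *acdh-4* (log2 fold changes -0.71 in the mutant and -0.22 in N2), *acdh-12*, whose product is related to the very-long-chain dehydrogenases (-0.28 and -0.20), *acdh-11*, known for its part in heat adaptation (-0.26 and -0.19), and *acdh-3* (-0.26 and 0.02). None of these differed between the strains in the interaction test (adjusted p = 0.735 for *acdh-4* and *acdh-3*, 0.893 for *acdh-12* and 0.872 for *acdh-11* in limma). Only the call of *acdh-4* held whichever mutant array was left out, and those of *acdh-12*, *acdh-3* and *acdh-11* held in 2, 3 and 4 of 8 such fits. In starved mutant samples *acdh-4* had log2 values down to 5.70, under the array medians. The last of the 12, *acdh-13*, had -0.11 and 0.04 and did not pass.

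At the following steps *ech-1.1*, one of a pair of genes for the alpha subunit of the mitochondrial trifunctional protein, fell in both strains and its partner *ech-1.2* did not pass. In starved N2 *ech-1.1* had log2 values of 7.15, 6.55, 6.31 and 6.61, against 7.53, 7.51, 7.54 and 7.32 in fed N2. The groups did not overlap, and the highest starved sample was the first. The log2 fold change was -0.82 in N2 (SE 0.138, adjusted p = 0.0006) and -0.65 in the mutant (SE 0.138, adjusted p = 0.00305). It was -0.70 in N2 with the third starved sample left out. For *ech-1.2* it was -0.21 in the mutant and -0.24 in N2 (adjusted p = 0.127 and 0.0842). The gene *ech-6*, of a short-chain enoyl-CoA hydratase that also serves the propionate shunt, fell by 0.67 in the mutant and 0.69 in N2 on the log2 scale (adjusted p = 0.00419 and 0.00374). Its N2 log2 fold change was -0.53 with the third starved sample left out.

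The mitochondrial thiolase genes among the members, *acaa-2* and *kat-1*, fell. For *acaa-2* the log2 fold change was -0.70 in the mutant (adjusted p = 0.00211) and -0.45 in N2 (adjusted p = 0.032). In N2 starved and fed arrays overlapped, and the call held in 3 of 8 fits with an array left out. Without the third starved N2 sample it was -0.35 (adjusted p = 0.0985). For *kat-1* it was -0.39 in the mutant and -0.48 in N2 (adjusted p = 0.0114 and 0.00361), and this call held in both strains with any array left out. The N2 value of *kat-1* was -0.38 with the third starved sample left out.

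The 3-hydroxyacyl-CoA dehydrogenase gene *hacd-1* had opposite signs in the strains. It had log2 values of 7.75, 8.21, 8.26 and 8.46 in starved mutant worms, against 7.57, 7.54, 7.91 and 8.28 in fed ones. In N2 they were 7.79, 7.46, 6.97 and 7.74 when starved, against 7.86, 7.72, 8.16 and 7.86 when fed. Starved and fed samples overlapped in both strains. The log2 fold changes, 0.34 in the mutant (95% interval -0.08 to 0.77) and -0.41 in N2 (95% interval -0.83 to 0.01), did not pass (adjusted p = 0.234 and 0.161). The N2 value without the third starved sample, the lowest of its group, was -0.24 (adjusted p = 0.425).

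**Figure D3:**
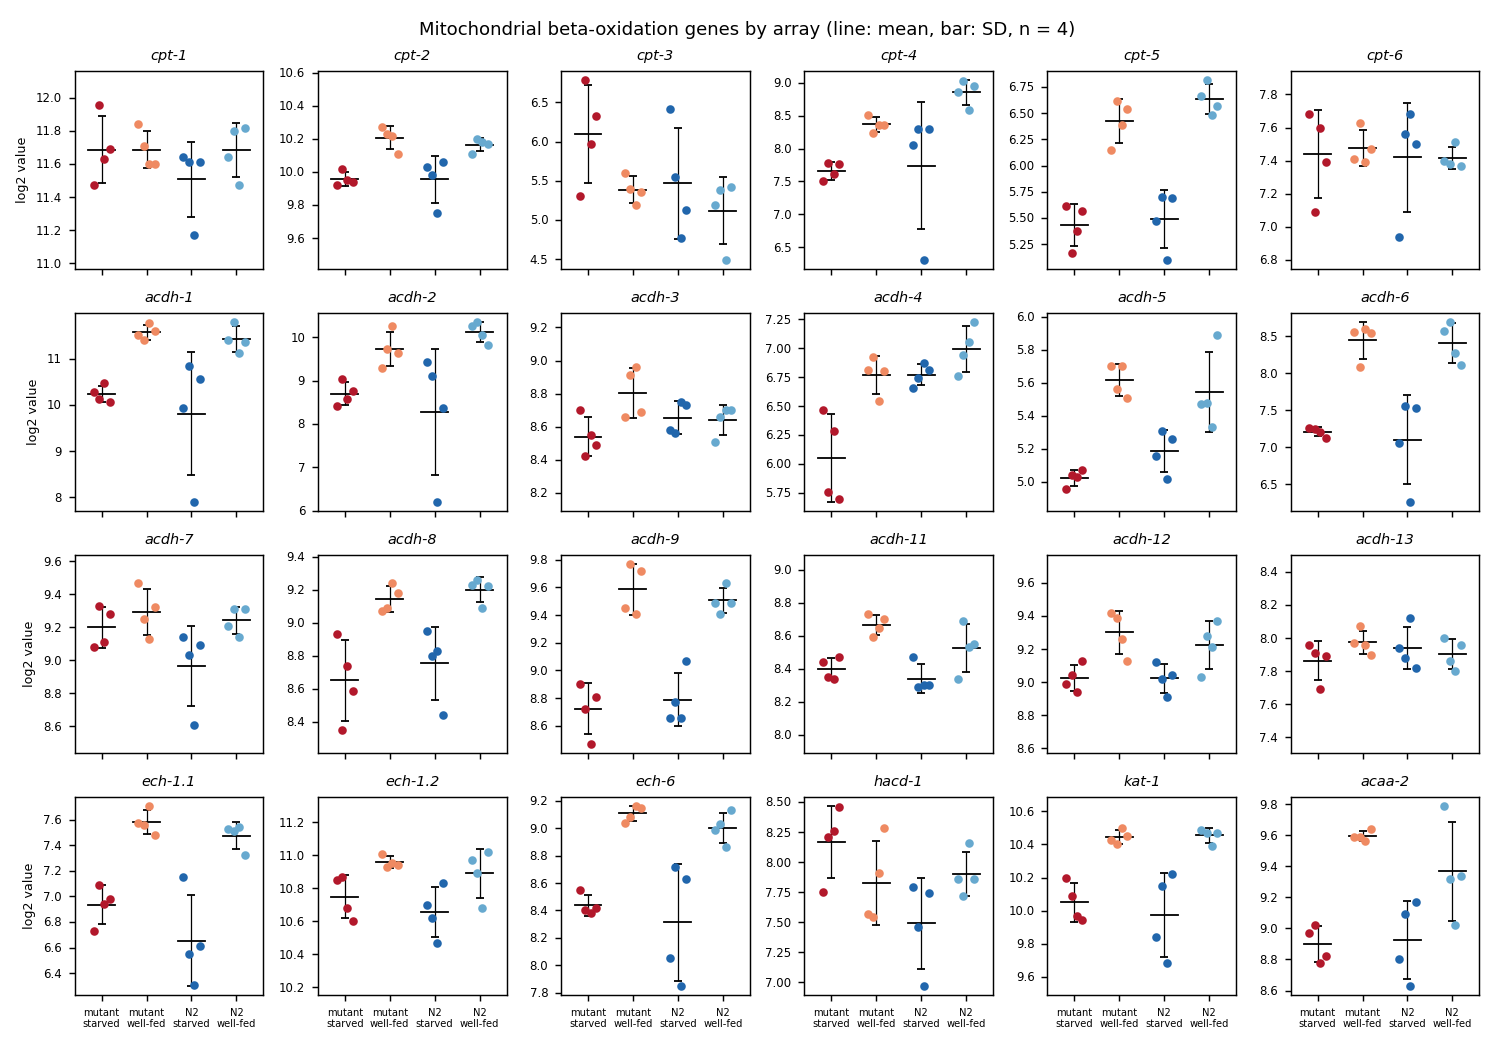
Log2 values of the 24 mitochondrial genes in each of the 16 arrays, carnitine palmitoyltransferases in the top row, then acyl-CoA dehydrogenases, then later steps; points are arrays, lines means and bars SDs (n = 4), and each panel has its own vertical axis. For *acdh-1*, *acdh-2* and *cpt-4* a single starved N2 sample, at 7.90, 6.20 and 6.31, lies far below the other 3, and *acdh-6*, *cpt-5* and *acdh-9* are lower in starved samples of both strains.

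The 7 *ech* genes without a sure compartment did not move as a group. In the mutant 1 fell and 1 rose. In N2 limma called 0 in either direction, and 2 lower and 1 higher had a p below 0.05 before adjustment. The gene that rose was *ech-7*, with log2 values of 9.17, 8.80, 9.23 and 9.2 in starved mutant worms, against 8.16, 8.37, 8.49 and 8.45 in fed ones. Every starved sample was higher than every fed one, and the second was the closest to them. The log2 fold change was 0.73 (SE 0.157, adjusted p = 0.00319). In N2 the values were 8.33, 8.52, 8.39 and 9.05 when starved, against 8.32, 8.29, 8.79 and 8.32 when fed. The N2 groups overlapped (log2 fold change 0.14, adjusted p = 0.582).

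The gene that fell was *ech-5*, with log2 values of 8.71, 8.67, 8.53 and 8.65 in the starved mutant, against 8.90, 8.94, 8.93 and 9.09 in the fed mutant (log2 fold change -0.33, adjusted p = 0.0219). The groups did not overlap, and the call was lost without the fourth fed (adjusted p = 0.0702) or the third starved mutant sample (adjusted p = 0.0632), and after cyclic loess normalization (adjusted p = 0.0864). In N2 its log2 fold change was -0.27 (adjusted p = 0.0552). The other 5, *ech-2*, *ech-3*, *ech-4*, *ech-8* and *ech-9*, had log2 fold changes from -0.27 to 0.29 in the mutant and from -0.29 to 0.31 in N2 and did not pass. The neighbours *ech-8* and *ech-9* have 0 protein-coding genes between them on chromosome IV, and *acdh-12* and *maoc-1* likewise on chromosome II.

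**Figure D4:**
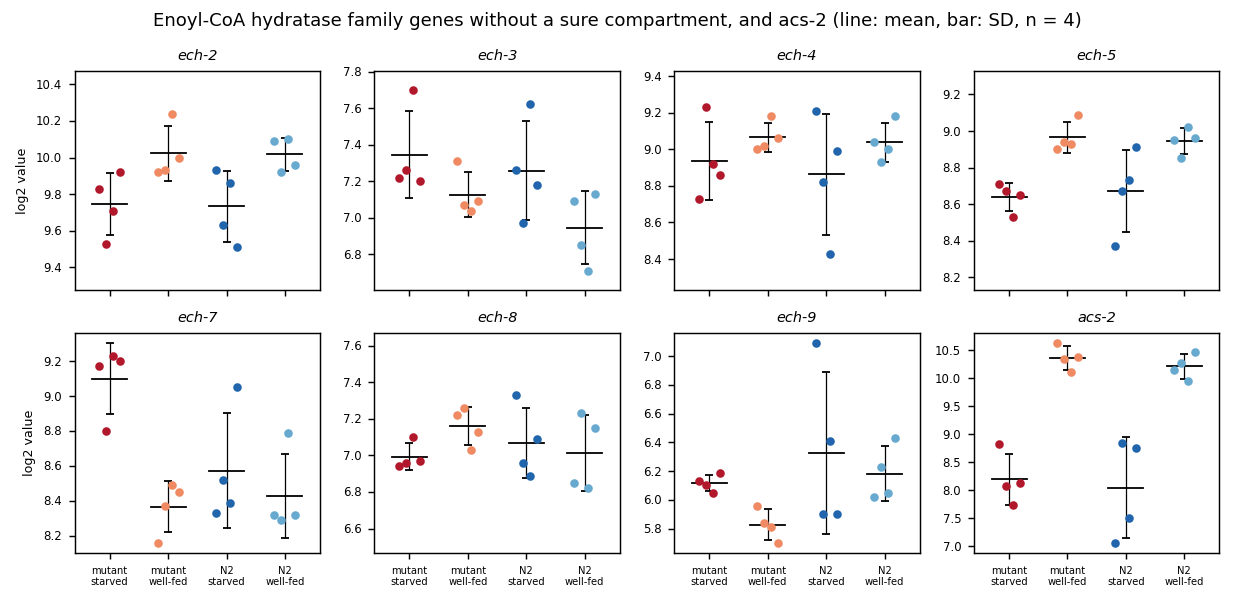
Log2 values of the 7 *ech* genes without a sure compartment, and of *acs-2*, an acyl-CoA synthetase gene, in each of the 16 arrays; points are arrays, lines means and bars SDs (n = 4), and each panel has its own vertical axis. The starved mutant samples of *ech-7* (8.80 to 9.23) lie above the fed ones (8.16 to 8.49), and *acs-2* is lower in starved samples of both strains.

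Set side by side, the peroxisomal genes had the larger share and the lower median in each strain: 90% fell in the mutant and in N2, against 62.5% and 50% of the mitochondrial genes. The N2 shares are those of limma. By the methods' t-test after adjustment far fewer members fell in N2, and *acox-1.1* and *acox-1.4* did not pass there. The mitochondrial median log2 fold change minus the peroxisomal one was 0.330 in the mutant and 0.282 in N2. With 1 array left out it ran from 0.268 to 0.347 in the mutant and from 0.218 to 0.386 in N2, with 0.226 without the third starved N2 sample. It was 0.502 and 0.392 with the 7 unplaced genes counted as mitochondrial. No test was made of this difference, since members are not replicates and 4 of the peroxisomal genes are neighbours. The ranges overlapped widely: 5 mitochondrial genes (*acdh-1*, *acdh-2*, *acdh-6*, *cpt-4* and *cpt-5*) had a lower fold change in N2 than any peroxisomal gene. With the third starved N2 sample left out this held for 4, since *cpt-4* was then at -0.64 and *acox-1.4* at -0.79. In the mutant *acdh-1* (-1.33) and *acdh-6* (-1.23) lay below *acox-1.4* (-1.03), and *acdh-2* (-1.03, not passing) was level with it.

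Means were also taken array by array. The mean log2 value over the 24 mitochondrial genes was 8.29, 8.33, 8.27 and 8.30 in starved mutant samples, against 8.73, 8.74, 8.77 and 8.75 in fed mutant samples. Over the 10 peroxisomal genes it was 8.01, 8.09, 8.02 and 7.96, against 8.71, 8.79, 8.71 and 8.71. No starved mutant sample reached a fed one by either mean. In N2 the mitochondrial mean was 8.33, 8.38, 7.80 and 8.35 when starved, against 8.74, 8.80, 8.64 and 8.77 when fed. The peroxisomal mean was 7.99, 8.15, 7.6 and 8.09 in starved N2, against 8.52, 8.69, 8.56 and 8.61 in fed N2. The third starved N2 sample was the lowest of all 16 by both means, and the other 3 starved N2 samples were also under every fed one. The mitochondrial mean minus the peroxisomal mean was 0.27, 0.24, 0.26 and 0.34 in starved mutant samples, against 0.02, -0.06, 0.05 and 0.04 in fed mutant samples, with no overlap. In N2 it was 0.34, 0.24, 0.20 and 0.26 when starved, against 0.22, 0.11, 0.08 and 0.16 when fed, and here the third starved sample lay under the first fed one.

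The effect of *alfa-1* on these genes was next compared within each food condition. In starved worms 0 of the 41 genes passed between *alfa-1(ok3062)* and N2, where 0.0745% of all genes were lower and 0.0196% higher. Before adjustment, limma gave a p below 0.05 to 2 lower and 2 higher members, where 12.1% of all genes had one. The methods' t-test gave 0 members after adjustment, against 2 lower and 1 higher over all genes. The median log2 fold change was 0.05, with 0.04 for the mitochondrial and 0.07 for the peroxisomal genes. Without the third starved N2 sample these medians were -0.04, -0.05 and -0.02. In well-fed worms 0 of 41 passed, where 0.0863% of all genes were lower and 0.00392% higher, and before adjustment 2 higher and 0 lower members had a p below 0.05 (4.72% of all genes). The methods' t-test gave 0 members after adjustment there as well, against 5 lower and 1 higher over all genes. The median of the 41 genes was 0.06.

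The member nearest to passing in starved worms was *acdh-4*. Its 4 values were 6.47, 5.76, 6.28 and 5.70 in the starved mutant, against 6.66, 6.74, 6.87 and 6.81 in starved N2, on the log2 scale. The values 5.76 and 5.70 lay under the array medians of 5.80 to 5.85, and signal over background was not analysed. The strains did not overlap, with the mutant lower, as for 2.76% of all genes. No member was higher in the starved mutant without overlap, as 1.49% of all genes were. Its fold change was -0.72 (95% interval -1.04 to -0.39, adjusted p = 0.113). Without the first starved mutant sample it was -0.86 and passed (adjusted p = 0.0245). In fed worms it was -0.22 (95% interval -0.55 to 0.10, adjusted p = 1).

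Next in order in starved worms were *hacd-1*, higher in the mutant by a log2 fold change of 0.68 (95% interval 0.25 to 1.1, adjusted p = 0.275), and *ech-7*, by 0.53 (95% interval 0.20 to 0.86, adjusted p = 0.277). For both, 3 of 4 starved mutant samples lay above all N2 samples, and the groups overlapped. Leaving out the third starved N2 sample gave 0.50 for *hacd-1* and 0.47 for *ech-7* (adjusted p = 0.545 and 0.543). In fed worms their log2 fold changes were -0.07 and -0.06.

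In well-fed worms the smallest p-values belonged to 2 peroxisomal genes. The log2 values of *acox-1.6* were 9.57, 9.63, 9.32 and 9.39 in the fed mutant, against 9.25, 9.31, 9.17 and 9.21 in fed N2 (log2 fold change 0.24, 95% interval 0.04 to 0.44, adjusted p = 0.922). Those of *daf-22* were 8.91, 9.0, 8.76 and 9.10, against 8.60, 8.69, 8.57 and 8.70 (log2 fold change 0.30, 95% interval 0.03 to 0.58, adjusted p = 0.994). The strains did not overlap for either gene, as for 2.15% of all genes in this direction. Next was *ech-9*, with log2 values of 5.96, 5.84, 5.81 and 5.70 in the fed mutant and 6.02, 6.23, 6.05 and 6.43 in fed N2 (log2 fold change -0.36, 95% interval -0.77 to 0.06, adjusted p = 1), again without overlap (2.1% of all genes). The other member lower in the fed mutant without overlap was *cpt-4*, which had the lowest fold change of the 41 genes in fed worms, -0.49 (95% interval -1.15 to 0.17, adjusted p = 1). In starved worms *cpt-4* had -0.07 (adjusted p = 0.949), and -0.55 without the third starved N2 sample (adjusted p = 0.142).

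Whether starvation acted differently in the strains was tested as an interaction. Of the 41 genes 0 passed, with a smallest adjusted p of 0.735 from limma. Over all 25498 genes 0 passed as well, with the same smallest adjusted p, so 0 of 41 is not particular to these genes. Before adjustment 5 of the 41 had a limma p below 0.05, where 6.44% of all genes did. These were *hacd-1* (0.75 on the log2 scale, 95% interval 0.15 to 1.35), *ech-7* (0.59, 0.12 to 1.06) and, in the other direction, *acox-1.3* (-0.40), *acdh-4* (-0.49) and *acdh-3* (-0.28). The intervals of all other members include 0. For *acdh-2*, *acdh-1*, *cpt-3* and *cpt-4* they reach up to 2.27, 1.57, 1.35 and 1.35, so these data do not exclude a difference between the strains of 1 unit for these genes. Their interaction values rested on the third starved N2 sample. Without it *acdh-2* had 0.14 in place of 0.83, *acdh-1* -0.35 in place of 0.28, *cpt-3* 0.13 in place of 0.36 and *cpt-4* -0.06 in place of 0.41, so the sign turned for *acdh-1* and *cpt-4*.

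**Figure D5:**
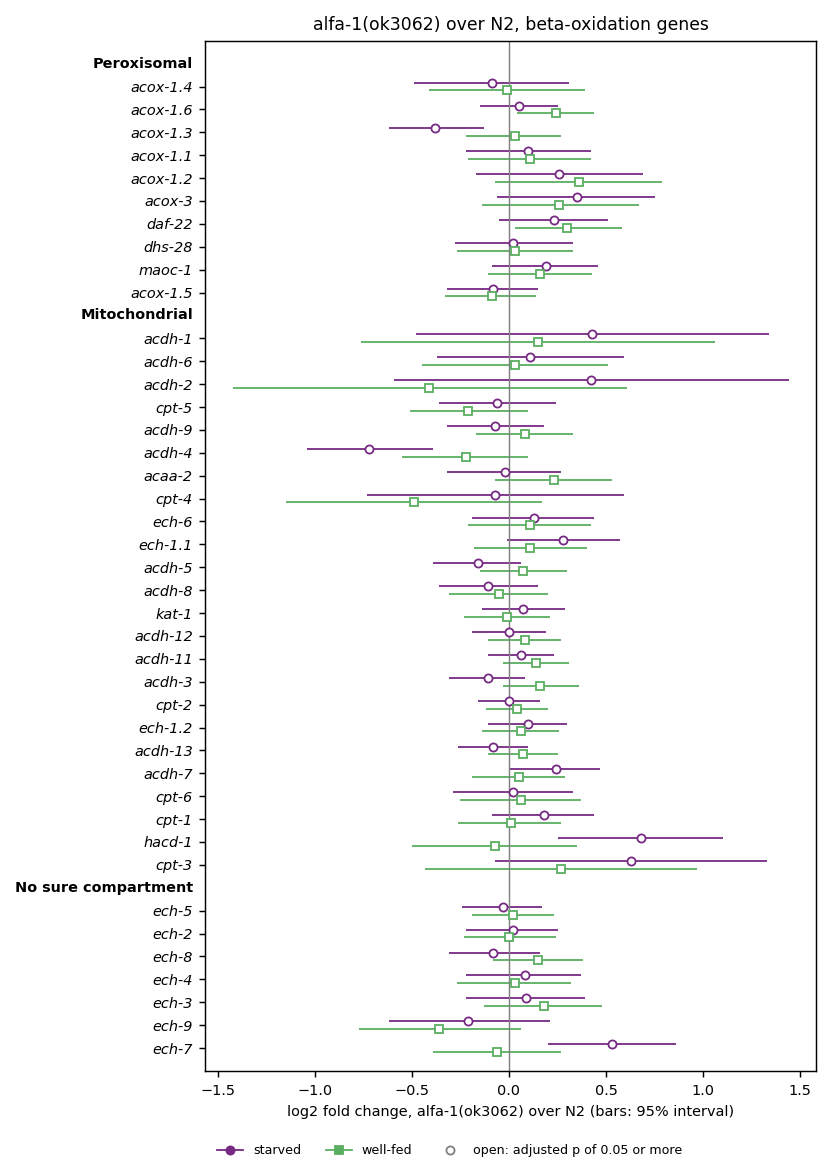
Log2 fold change of *alfa-1(ok3062)* over N2 for the 41 genes, in starved (purple circles) and well-fed (green squares) worms, with 95% intervals as bars. All symbols are open, since 0 of 41 genes passed in either condition, and *acdh-4* at -0.72 and *hacd-1* at 0.68 lie farthest from 0 in starved worms.

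Genes that feed, serve or regulate the pathway and are no members were read from lists. Of 53 listed genes 50 were measured. In *alfa-1(ok3062)* 21 fell and 3 rose with starvation, where 14.3% of all genes fell and 10.9% rose. In N2 20 fell and 3 rose, where 11.6% of all genes fell and 10.8% rose. These shares also stand beside the counts by list below. Between the strains 0 of the 50 differed in either condition, where at most 0.0863% of all genes passed in 1 direction. The 4 listed genes of smallest p were the same in both strains. Among these *pmp-5* and *pmp-1*, which encode ABC transporters of the peroxisomal family, had log2 fold changes of -1.59 and -0.93 in the mutant and -1.45 and -0.96 in N2. The gene *hach-1*, of the hydrolase of the propionate shunt, had -0.76 in the mutant and -0.74 in N2. The fourth, *daf-16*, of the FOXO transcription factor of insulin signalling, rose by 0.58 in the mutant and 0.53 in N2 (adjusted p at most 0.000121 for all 4 in both strains).

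By list, 3 of 5 genes of fatty acid activation and electron transfer fell in the mutant and 4 of 5 in N2, among them *etfb-1*, of an electron transfer flavoprotein subunit, with log2 fold changes of -0.45 and -0.46. Of 7 genes of the trifunctional protein and other mitochondrial steps 5 fell in the mutant and 6 in N2. For *hadb-1*, of the beta subunit of that protein, these were -0.29 and -0.40. Of 9 genes of propionate breakdown 5 fell in the mutant and 4 in N2. Peroxisome import and transport genes moved less as a list: of 18, 6 fell and 0 rose in the mutant, and 5 fell and 1 rose (*pmp-3*, 0.24) in N2, with medians of -0.16 and -0.12.

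The gene *acs-2*, named after its values were seen, encodes an acyl-CoA synthetase that is known in the worm as a target of NHR-49 induced by fasting. It had log2 values of 8.83, 8.07, 7.74 and 8.13 in starved mutant worms, against 10.62, 10.34, 10.11 and 10.37 in fed ones. In N2 they were 7.06, 8.85, 7.50 and 8.76 when starved, against 10.15, 10.26, 9.95 and 10.47 when fed. It was lower in every starved sample of both strains, with a log2 fold change of -2.17 in each (adjusted p = 0.000259 in the mutant and 0.000274 in N2), or 22.2% and 22.3% of the fed signal. Of the 11 regulator genes, *nhr-49* itself had log2 fold changes of 0.10 in the mutant and -0.04 in N2 and did not pass (adjusted p = 0.57 and 0.857). The gene *nhr-68*, of a nuclear receptor that activates the propionate shunt, also chosen after its values were seen, fell by 1.1 in the mutant and 1.04 in N2 on the log2 scale (adjusted p = 0.000482 and 0.000816). In the mutant *sbp-1* (0.37) and *hlh-30* (0.21) rose and *nhr-13* (-0.32) fell, and in N2 *mdt-15* rose (0.35).

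Markers of tissues and of larval stage moved with starvation as well. Their counts stand beside 14.3% of all genes that fell and 10.9% that rose in the mutant, and 11.6% and 10.8% in N2. Of 4 molting genes 2 fell in the mutant and 4 in N2, with medians of -0.48 and -1.04. Their mean log2 value per sample ran from 10.28 to 10.57 in starved mutant worms, against 10.88 to 11.07 in fed ones, and from 9.05 to 10.52 in starved N2, against 10.75 to 11.11 in fed N2. The lowest was again the third starved N2 sample. Of 5 hypodermis and cuticle genes 2 fell in the mutant and 4 in N2, and their mean ran from 9.84 to 9.97 in the starved and 10.40 to 10.61 in the fed mutant, and from 9.15 to 10.10 in starved and 10.28 to 10.56 in fed N2.

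The intestine is the main fat store of the worm. Of 7 intestine genes 3 fell in the mutant and 2 in N2. Their mean ran from 9.48 to 9.64 in starved and 9.78 to 9.84 in fed mutant samples, and from 9.52 to 9.72 in starved and 9.79 to 9.89 in fed N2. Oocyte and yolk genes rose, 3 of 5 in the mutant and 5 of 5 in N2, and sperm genes fell, 3 of 4 and 1 of 4. Muscle, neuron and germ line lists had medians between -0.07 and 0.11. In the mutant 1 neuron gene rose, and in N2 1 neuron and 1 germ line gene rose and 1 neuron and 1 muscle gene fell. Of the 38 markers measured 0 passed between the strains, where 0.0745% of all genes were lower and 0.0196% higher in starved worms. In fed worms these shares were 0.0863% and 0.00392%. With so few genes passing anywhere, 0 of 38 does not show equal tissue share or stage. The list medians of mutant over N2 in starved worms ran from -0.19 (sperm) to 0.51 (molting). They include the third starved N2 sample, which had the lowest molting mean. The part of tissue share and of larval stage in the falls of the beta-oxidation genes was not tested.

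The genes most like *acox-1.6*, the member of smallest p, were looked for over the 16 arrays. Among non-members the highest Pearson correlations of log2 values were those of *gon-1*, which encodes a secreted metalloprotease of gonad shape (0.958), *F48F7.5* (0.957) and *unc-68*, of the muscle ryanodine receptor (0.953). Among members they were those of *acdh-9* (0.903), *ech-1.1* (0.878) and *acox-1.1* (0.878). All 16 arrays share the step between fed and starved worms, so these values describe a likeness and carry no p.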

How the data were processed

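RNA of whole worms was hybridised to Affymetrix C. elegans arrays, 16 in all. The deposited log2 values per probe set were made by the authors, whose processing notes name RMA and Partek, without versions. RMA corrects background and normalizes arrays by quantiles, so a shift shared by most genes would be removed. Array medians were 5.80 to 5.85. Signal over background was not analysed here, and precision is set by the 4 arrays per group.

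Of 29317 probe sets, 25546 had 1 gene, 646 several and 3125 none listed. The probe set of highest mean stood for a gene, and 25498 genes were tested. Limma 3.58.1 in R 4.3.3 was fitted to 4 group means (12 residual degrees of freedom), with Benjamini-Hochberg adjustment over all genes, for 5 comparisons, and tested on simulated data. Python 3.11.15 with pandas 2.3.3, numpy 2.4.6 and matplotlib 3.10.9 made summaries and figures. The members, gene lists and tests were chosen with earlier results of these data known. Per-sample values are given for the 4 mitochondrial, 3 peroxisomal and 2 other genes of smallest p among those that passed in each starvation comparison, and for the 3 genes of smallest p in each strain comparison and in the interaction. The 4 pathway genes of smallest p and the 3 non-members most correlated with the member of smallest p are named too. Per-sample values of *acdh-1*, *acdh-2*, *cpt-4* and *acs-2*, and the other pathway genes named, were chosen after their values were seen. Alternatives were each array left out, a block for the replicate number, a fit to only the arrays compared, median centring, cyclic loess, no dim genes (lowest 25 percent), the mean of probe sets, an intensity trend and the methods' t-test. Every sample was used. Positions served only to find neighbours, in WBcel235, because no source used here gives the build of the platform table. The promoter search that had been planned was not run, and no sequences are given.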

Additional observations from a re-analysis of the deposited data

Results flagged for a closer look

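Of 60 groups of 4 samples examined, over 15 genes, 5 had a sample far from the other 3 (by Dixon's criterion at 95%), where chance gives about 1 in 20. The 15 genes were the members chosen by smallest p for per-sample values, and the other members were not examined in this way. In the well-fed mutant *acdh-6* had 8.08 in the second sample, against 8.54 to 8.60 in the others. The gene *ech-7* had 8.80 in the second starved mutant sample, against 9.17 to 9.23, and 8.79 in the third well-fed N2 sample, against 8.29 to 8.32. The fourth well-fed N2 sample had 7.32 for *ech-1.1*, against 7.51 to 7.54. For *daf-22* the third starved N2 sample had 7.57, against 8.18 to 8.29, and this sample was the lowest of its group for 28 of the 41 genes. Among members not examined, the third starved N2 sample was also far below the other 3 for several. It had 6.31 for *cpt-4*, against 8.06 to 8.30, and 9.22 for *dhs-28*, against 9.92 to 9.99. For *cpt-1* it had 11.17, against 11.61 to 11.64. All are log2 values.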

How the results depend on the processing

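With 1 array left out, 21 to 23 genes fell and 1 to 2 rose in the starved mutant, against 25 and 1 with all arrays, and 18 to 24 fell and 0 rose in starved N2, against 21 and 0. In these fits 2847 to 3725 of all genes fell in the mutant and 2413 to 2803 in N2. Between the strains 0 to 1 member passed in starved worms, the 1 being *acdh-4* without the first starved mutant sample, and 0 in fed worms and in the interaction. The number that rose in the mutant was 2 with the arrays of the comparison alone and by the methods' t-test with or without adjustment. That t-test gave 5 lower in N2 after adjustment, with 1456 higher and 1586 lower over all genes, against 2759 and 2948 by limma, and *acdh-6*, *acox-1.1* and *acox-1.4* in N2 did not pass it (adjusted p = 0.057, 0.0622 and 0.0828). Without adjustment it gave 2 lower and 2 higher members between the strains in starved worms, against 1119 and 643 of all genes. In fed worms it gave 2 lower and 2 higher, against 853 and 941 of all genes. The mitochondrial minus peroxisomal median, 0.330 in the mutant and 0.282 in N2 for starvation, ran from 0.268 to 0.347 and from 0.218 to 0.386 with 1 array left out, and was 0.502 and 0.392 with the unplaced genes as mitochondrial. For mutant over N2 it was -0.033 in starved worms (-0.076 to 0.049) and -0.072 in fed worms (-0.129 to -0.042). Cyclic loess turned the split of all genes with starvation in the mutant to 3489 higher and 3018 lower, against 2791 and 3649, with 1 member higher and 19 lower.

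The replicate numbers did not pair the samples: of 24 same-numbered pairs, 4 had a correlation of deviations over 0.1 (range -0.47 to 0.15). With the replicate number as a block 23 genes fell and 1 rose in the starved mutant, 21 fell and 0 rose in starved N2, and 0 passed between the strains or in the interaction. Over all genes the block gave 3347 lower and 2551 higher in the mutant, and 2759 lower and 2448 higher in N2. The cause of these changes was not tested. The planned search of promoters for motifs was not run.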
